A study of Mus musculus with 4 samples.

Results

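Untreated CT26 tumours that overexpressed IL-34 were compared with untreated CT26 tumours deficient in IL-34, gene by gene across the genome. The comparison took every gene row with FPKM of 1 or more in either of these 2 libraries, which gave 11520 of the 23745 rows of the table. FPKM is the number of fragments scaled to transcript length and to the mapped fragments of the library. Left out of the gene counts below were 19 rows of short RNAs and 34 further rows of a symbol already present, so that 11467 genes were compared.

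CT26 is a colon carcinoma cell line of BALB/c mice, and the strain background of every library was BALB/c. The untreated group first compared came from tumours of CT26 cells overexpressing IL-34 (IL-34 OE CT26) and the other from tumours of CT26 cells lacking it (IL-34 KO CT26). A second pair of libraries came from tumours of the same lines given an anti-PD-1 antibody, and is set beside the first because it shares no library with it. Each of the 4 groups had 1 library, so no value has a replicate, no spread within a group is known and no test was made. The labels do not give the number of clones or animals behind a library, the age of the mice or the time of collection. No library came from CT26 cells with unaltered IL-34, so what the loss of the cytokine and what its excess contributed, or any further difference of the cell lines, cannot be told apart.

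IL-34 is a secreted cytokine that binds the CSF-1 receptor, which it shares with CSF-1. Signalling through this receptor maintains macrophages and their precursors, and in skin and brain IL-34 sustains Langerhans cells and microglia. Macrophages of tumours carry the receptor, and its ligands have been studied as a means by which tumour cells shape the myeloid cells around them. In a bulk tumour library, fewer cells of a type and less RNA per cell cannot be told apart.

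The untreated libraries were very alike. The depth, estimated from the step that 1 fragment makes in the lowest values, was about 22600000 fragments in the overexpressing tumour and 23600000 in the deficient tumour. FPKM values summed to 523753 in the overexpressing tumour and 543926 in the deficient tumour. Ratios are given as log2 of FPKM + 1, overexpressing over deficient, a scale on which weakly expressed genes differ by less than their plain ratio, while a fold is the quotient of FPKM values without the added 1. Their median was −0.03, and 90% of genes lay between −0.22 and 0.19. With anti-PD-1 the same genes spread more widely, from −0.59 to 0.39. Above 0 were 4592 genes (40%) and below 0 were 6875 (60%), and counts in the gene groups below are to be read against these shares.

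Defining markers of the tissue were present in both libraries. The macrophage genes C1qa, at 707 FPKM in the overexpressing tumour against 667 FPKM in the deficient tumour, and Cd68, at 94.9 against 90.1 FPKM, were abundant. T cell, endothelial and fibroblast markers were also detected. Epithelial markers were low for a carcinoma line: Epcam was at 0.0880 FPKM in the overexpressing tumour and 0.544 FPKM in the deficient tumour, and Cldn7 was listed at 0 in both.

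Past a log2 ratio of 1 were 14 genes (0.122% of those compared) that were higher in the overexpressing tumour and 11 (0.0959%) that were lower. These were Il34, 5 granzymes, Rps27, BC002163, Hist2h2aa2, Sprr4, Fcrl6, Hist1h4d, Hist2h4 and Hist2h2ac on the higher side. On the lower side were Amd1, Krt18, Krt19, Krt8, Gm15056, Apoo-ps, Fxyd2, Lcn2, Gm4070, Fam25c and Cited1. Of the higher genes 8 had FPKM of 5 or more in either library, and of the lower genes 1, which was Lcn2. At a fold of 1.5 on the FPKM + 1 scale there were 34 higher genes (0.297%) and 40 lower genes (0.349%).

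**Figure D1:**
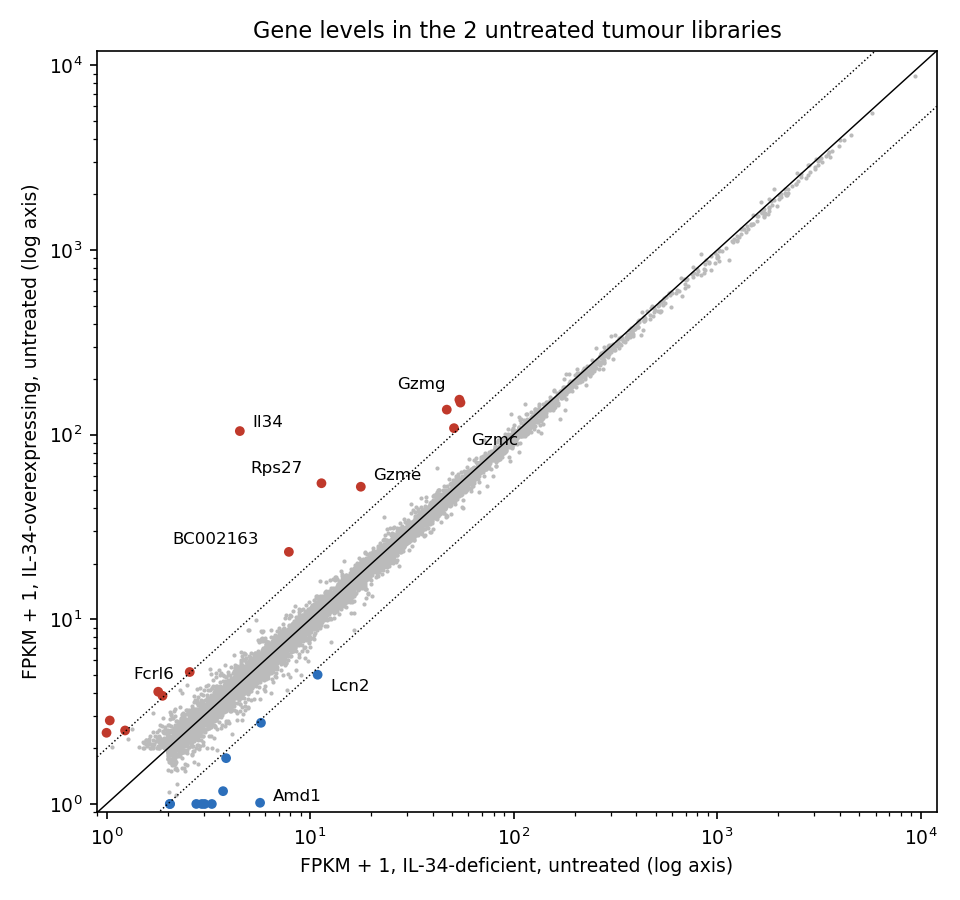
FPKM + 1 of 11467 genes in the untreated IL-34-overexpressing library (vertical, log axis) against the untreated IL-34-deficient library (horizontal, log axis), 1 point per gene. The solid line marks equal values and the dotted lines a log2 ratio of 1 in size; the 14 red genes are higher and the 11 blue genes lower in the overexpressing tumour, and Il34 stands farthest from the line.

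Il34 itself checked the labels. It was at 104 FPKM in the overexpressing tumour against 3.52 FPKM in the deficient tumour, a fold of 29.4 and a log2 ratio of 4.53 (chromosome 8, 110741829 to 110805903, mm10). The estimated fragments behind these values were 4007 and 142. The signal in the deficient tumour was low but not 0, and the sources used here do not say which part of the gene was disrupted. The nearest genes on either side had close values: 8 neighbours, among them Mtss1l and Sf3b3, had log2 ratios between −0.08 and 0.14. Other genes of the pathway had close values. Csf1r, the receptor, was at 79.7 FPKM in the overexpressing tumour against 78.3 FPKM in the deficient tumour, and Csf1, its other ligand, at 71.9 against 78.4 FPKM. Sdc1, a proteoglycan reported to bind IL-34, was at 15.2 against 15.4 FPKM, and Ptprz1, a receptor-type phosphatase reported to bind it too, had no FPKM listed above 0 in either library.

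Apart from Il34, granzymes C, D, E, F and G were the highest genes with FPKM of 5 or more whose rows do not lie within another gene's row. Granzymes are serine proteases of the cytotoxic granules of T cells and natural killer cells, and granzymes C to G are rodent genes encoded near each other on chromosome 14 (56117619 to 56234656). Gzmn lies between Gzmg and Gzmf, and was at 0.134 FPKM in the overexpressing tumour and listed at 0 in the deficient tumour. The bases before the start sites of granzymes C to G are shown because these 5 genes had the highest ratios together. Granzyme B, which lies in the same cluster and differed less, is shown for comparison. Each line gives 200 bases upstream of the RefSeq start on the minus strand, 5′ to 3′, on GRCm38.p6. For Gzmb this start lies upstream of the measured row, which ends at 56262260. Its window is therefore farther from the measured gene than those of granzymes C to G. The windows are chr14:56234658-56234857 for Gzmc, chr14:56132594-56132793 for Gzmd, chr14:56120626-56120825 for Gzme, chr14:56211408-56211607 for Gzmf, chr14:56159580-56159779 for Gzmg and chr14:56262335-56262534 for Gzmb. Capitals mark matches on either strand to the RUNX motif TGTGGT, which reads ACCACA on the opposite strand, and to the cAMP response element TGACGTCA.
Gzmc: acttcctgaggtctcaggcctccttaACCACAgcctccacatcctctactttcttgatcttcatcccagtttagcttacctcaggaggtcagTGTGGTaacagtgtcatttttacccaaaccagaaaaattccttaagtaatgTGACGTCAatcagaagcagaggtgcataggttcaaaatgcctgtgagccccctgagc
Gzmd: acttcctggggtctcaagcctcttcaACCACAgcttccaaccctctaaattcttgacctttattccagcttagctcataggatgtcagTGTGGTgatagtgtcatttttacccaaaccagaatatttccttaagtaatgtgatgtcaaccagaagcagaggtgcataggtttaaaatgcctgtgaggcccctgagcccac
Gzme: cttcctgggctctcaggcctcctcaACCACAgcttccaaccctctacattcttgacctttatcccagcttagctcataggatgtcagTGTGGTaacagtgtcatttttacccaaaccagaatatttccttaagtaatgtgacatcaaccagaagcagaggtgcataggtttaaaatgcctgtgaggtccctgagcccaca
Gzmf: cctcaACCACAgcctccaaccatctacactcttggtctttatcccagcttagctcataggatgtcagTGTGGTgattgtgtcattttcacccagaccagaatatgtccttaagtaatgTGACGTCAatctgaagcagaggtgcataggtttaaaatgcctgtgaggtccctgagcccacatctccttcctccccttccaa
Gzmg: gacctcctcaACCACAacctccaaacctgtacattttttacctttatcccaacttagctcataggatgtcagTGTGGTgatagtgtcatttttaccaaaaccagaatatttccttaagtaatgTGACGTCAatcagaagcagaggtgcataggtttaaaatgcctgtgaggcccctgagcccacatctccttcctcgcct
Gzmb: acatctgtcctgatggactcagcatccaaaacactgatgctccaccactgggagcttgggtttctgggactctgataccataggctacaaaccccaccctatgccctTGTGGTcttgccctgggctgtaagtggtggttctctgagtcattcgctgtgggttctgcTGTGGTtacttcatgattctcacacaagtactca

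Motifs were searched on both strands in windows upstream of the start, which hold the printed 200 bases and reach somewhat farther upstream. Bases past the start were not searched. The RUNX letters were in all 5 of the granzyme C to G windows, 2 matches in each, and in 14.2% of 27025 promoters of RefSeq searched in the same way. They were also in the windows of Gzmb, with 2 matches, and of Gzma, with 1, so these letters do not set the 5 genes apart from granzymes that differed less. RUNX proteins are transcription factors of cytotoxic lymphocytes. The cAMP response element was found in 3 of 5 (Gzmc, Gzmf and Gzmg) and in 1.62% of all promoters. The AP-1 motif TGANTCA, the STAT motif TTCNNNGAA, the T-box motif GGTGTGA and the letters TATAAA were in none of these 5 windows. The AP-1 letters were found once in the Gzmb window. The 4 motifs were in 6.87%, 7.18%, 3.31% and 12.97% of all promoters. Upstream sequences of the 5 genes matched each other at 70.2% to 94.8% of positions, so these matches are not independent of one another, and a match is not evidence of binding.

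Gzmg was at 154 FPKM in the overexpressing tumour against 53.2 FPKM in the deficient tumour, and Gzmf at 148 against 53.8 FPKM. Gzmd was at 136 FPKM in the overexpressing tumour against 46.0 FPKM in the deficient tumour, and Gzme at 51.3 against 16.8 FPKM. Gzmc was at 107 against 49.95 FPKM. All 5 were higher in the overexpressing tumour, by folds of 2.15 for Gzmc to 3.06 for Gzme, and rested on 1063 (Gzme) to 3162 (Gzmg) estimated fragments in that library. Transcripts of granzymes D to G match each other at 82.9% to 90.04% of positions, so fragments can be divided wrongly among them, and single members are uncertain. The share of windows of 50 bases found also in another of the 5 transcripts ran from 4.14% for Gzmc to 21.5% for Gzmd. The sum is less affected by such division: the 5 genes together were at 596 FPKM in the overexpressing tumour against 220 FPKM in the deficient tumour, a fold of 2.71.

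In the anti-PD-1 pair, the sum of granzymes C to G was 301 FPKM in the overexpressing tumour against 39.6 FPKM in the deficient tumour, a fold of 7.61. The direction was thus the same in both pairs for each of the 5. The proportions among the members differed between the libraries. Gzmc was 18.0% of the sum in the untreated overexpressing tumour and 22.7% in the untreated deficient tumour, and 30.3% in the anti-PD-1 overexpressing tumour and 35.1% in the anti-PD-1 deficient tumour. Gzme was 8.60% of the sum in the untreated overexpressing tumour and 7.63% in the untreated deficient tumour, and 8.88% in the anti-PD-1 overexpressing tumour and 5.74% in the anti-PD-1 deficient tumour.

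Other granzymes and granule genes differed by less. Gzma was at 64.6 FPKM in the overexpressing tumour against 41.2 FPKM in the deficient tumour, a log2 ratio of 0.64, and Gzmb, whose protease cleaves caspases, at 92.9 against 70.7 FPKM, a ratio of 0.39. Prf1, the pore-forming perforin, was at 34.7 against 22 FPKM. Gzmk had the other sign, at 1.63 against 1.87 FPKM. Of the 8 granzymes with FPKM of 1 or more, 7 were above 0, with a median of 1.27, while Gzmm and Gzmn were under the minimum.

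Serpinb9b, a serpin of the granzyme-inhibitor family, was at 8.87 FPKM in the overexpressing tumour against 4.41 FPKM in the deficient tumour, a log2 ratio of 0.87. With anti-PD-1 it was at 7.01 against 2.55 FPKM. Serpinb9, the inhibitor of granzyme B next to it on chromosome 13, was named after its values were seen, and was at 11.6 FPKM in the overexpressing tumour against 11.8 FPKM in the deficient tumour. Serpinb9b was therefore higher and its neighbour close to even.

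**Figure D2:**
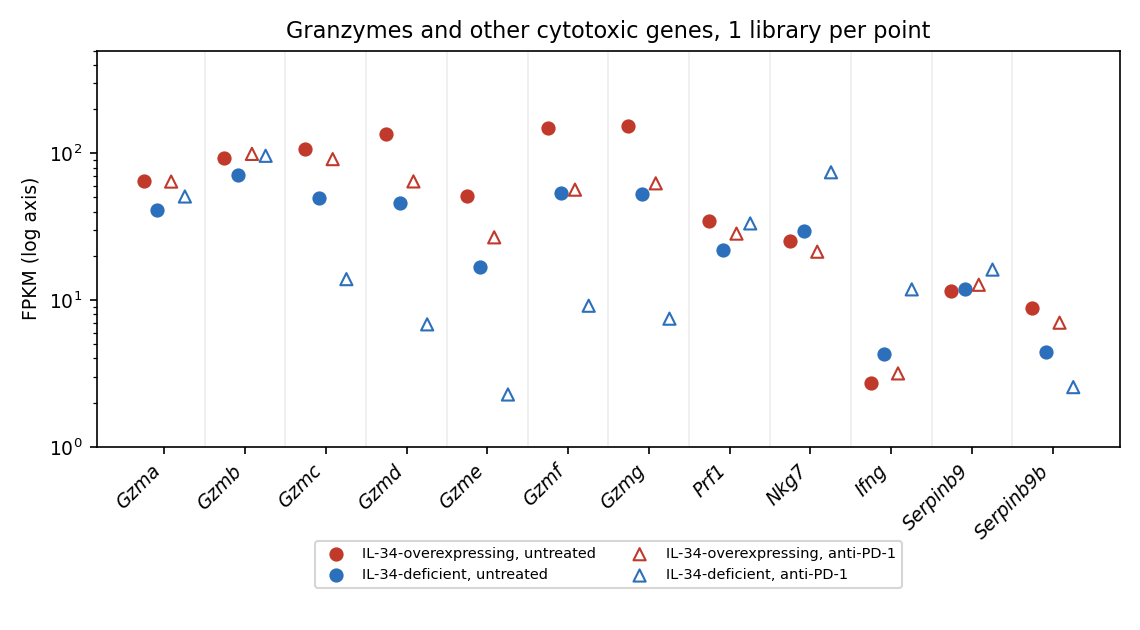
FPKM (log axis) of granzymes, perforin and related genes in the 4 libraries, 1 point per library; red marks IL-34-overexpressing and blue IL-34-deficient tumours, filled circles untreated and open triangles anti-PD-1. Granzymes C to G are higher in the overexpressing tumour in both pairs, while Nkg7 and Ifng are not.

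Genes of T cells were divided by list. Of 14 pan-T cell genes, 12 were below 0, with a median of −0.24, the opposite side from the granzymes. Of 8 genes of naive and memory T cells 5 were above 0, with a median of 0.04. Of 5 genes of regulatory T cells 3 were above 0, with a median of 0.06 that became −0.13 with a minimum of 5 FPKM. Cd3e, a signalling chain of the T cell receptor complex, was at 9.69 FPKM in the overexpressing tumour against 12.8 FPKM in the deficient tumour, and Lat, its adaptor, at 2.71 against 3.96 FPKM. Thy1 and Cd5 lay above 0, Cd5 at 1.82 against 1.54 FPKM. Cd8a, the coreceptor of cytotoxic T cells, was at 5.77 FPKM in the overexpressing tumour against 8.61 FPKM in the deficient tumour, and Cd8b1 at 5.73 against 8.16 FPKM. Cd4 was nearer to even, at 1.38 against 1.57 FPKM.

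Most other effector genes lay on the same side as Cd8a. Ifng, which encodes interferon-γ, was at 2.70 FPKM in the overexpressing tumour against 4.30 FPKM in the deficient tumour, and Fasl, the ligand of the death receptor FAS, at 1.53 against 2.47 FPKM. Of the 8 effector genes other than granzymes, 6 were below 0, and the median was −0.13. Prf1 and Srgn lay above 0. The largest difference of the list was that of Prf1, at 34.7 FPKM in the overexpressing tumour against 22 FPKM in the deficient tumour. It was the only gene of the list 1.5-fold apart. Pdcd1, which encodes PD-1, was at 4.92 FPKM in the overexpressing tumour against 7.56 FPKM in the deficient tumour, and Tigit, another inhibitory receptor, at 5.46 against 7.85 FPKM. Havcr2, which encodes TIM-3, was at 9.44 against 7.06 FPKM, so inhibitory receptors were divided, 3 above and 3 below 0. Of the PD-1 ligands, Cd274 was at 21.0 FPKM in the overexpressing tumour against 22.8 FPKM in the deficient tumour and Pdcd1lg2 at 1.72 against 1.84 FPKM.

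Natural killer cell genes were divided as well, with 5 of 9 above 0 and a median of 0.10 that became −0.26 with a minimum of 5 FPKM. Klrg1, an inhibitory receptor of mature natural killer and effector T cells, was at 4.13 FPKM in the overexpressing tumour against 2.46 FPKM in the deficient tumour. Ncr1, which encodes NKp46, was at 7.42 against 6.60 FPKM. Xcl1, a chemokine for dendritic cells, was at 9.87 FPKM in the overexpressing tumour against 14.9 FPKM in the deficient tumour, and Klrc1, which encodes NKG2A, at 5.74 against 7.57 FPKM. Fcrl6, an Fc receptor-like protein of cytotoxic lymphocytes in humans, was past the size rule, at 3.05 against 0.795 FPKM from 132 and 36 estimated fragments. Tox, a transcription factor of persistently stimulated T cells, was at 1.01 FPKM in the overexpressing tumour against 1.74 FPKM in the deficient tumour. All 6 T cell transcription factors that met the FPKM minimum were below 0, with a median of −0.13. With no minimum 6 were below 0 and 3 above, with a median of −0.08.

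Macrophage genes, the lineage that depends on CSF-1R, were close to even. The 16 pan-macrophage genes summed to 5536 FPKM in the overexpressing tumour and 5537 FPKM in the deficient tumour. Their ratios ran from −0.23 to 0.08, with a median of −0.02 that was above 0 after rescaling to TPM (0.03) or centring (0.01). Emr1, which encodes F4/80, was at 38.6 FPKM in the overexpressing tumour against 38.9 FPKM in the deficient tumour, and Itgam, which encodes CD11b, at 65.3 against 74.7 FPKM. Under anti-PD-1, 15 of the 16 were below 0, with a median of −0.88, so the closeness held without treatment and not in that pair.

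Ratios of genes linked to macrophage activation ranged more widely than those of the lineage genes. They ran from −0.58 to 0.12 for classical and from −0.61 to 0.54 for alternative activation. Il1b, the inflammatory cytokine, was at 12.4 FPKM in the overexpressing tumour against 19.1 FPKM in the deficient tumour, and Nos2, the inducible nitric oxide synthase, at 3.98 against 6.35 FPKM. Of 8 classically activated macrophage genes 7 were below 0, with a median of −0.21. Among genes of alternative activation 8 of 13 were above 0, with a median of 0.05. Cd163, a haemoglobin scavenger receptor, was at 7.59 FPKM in the overexpressing tumour against 4.90 FPKM in the deficient tumour, and Lyve1, a hyaluronan receptor of resident macrophages and lymphatic vessels, at 9.61 against 6.60 FPKM. Mgl2, a lectin, lay on the other side, at 2.07 against 3.68 FPKM, as did Ccl22. The list therefore had no common direction. Under anti-PD-1, Il1b, Cd163 and Mgl2 had the other sign, while Nos2, Lyve1 and Ccl22 kept theirs.

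The 13 genes with FPKM of 5 or more that were lower by 1.5-fold were Lcn2, Saa3, Cxcl13, Mfap4, Ccl3, Cxcl1, Gpr84, Fam100b, Gimap7, S100a9, P4ha2, Fos and Des. The row of Fam100b lies within that of Gm7367, and no sum of both was made. Lcn2, an iron-scavenging protein of neutrophils and inflamed epithelium, was at 4.01 FPKM in the overexpressing tumour against 9.89 FPKM in the deficient tumour, from 83 and 214 estimated fragments. Saa3, an acute-phase protein, was at 7.74 against 15.5 FPKM, and Cxcl13, which draws B cells into lymphoid follicles, at 3.17 against 6.70 FPKM. All were lower in the overexpressing tumour. Ccl3, a chemokine for monocytes and lymphocytes, was at 6.54 FPKM in the overexpressing tumour against 11.7 FPKM in the deficient tumour, and Cxcl1, a neutrophil chemokine, at 4.91 against 8.76 FPKM. Gpr84, a fatty acid receptor of myeloid cells, was at 3.90 against 7.01 FPKM. Mfap4, an extracellular matrix protein, was at 4.01 FPKM in the overexpressing tumour against 8.01 FPKM in the deficient tumour, and Gimap7, a GTPase of lymphocytes, at 4.30 against 7.52 FPKM. Of 13 chemokines that attract myeloid cells 11 were below 0, with a median of −0.29. Ccl8, a monocyte chemokine, was an exception, at 292 FPKM in the overexpressing tumour against 253 FPKM in the deficient tumour.

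Neutrophil genes were low in both tumours. S100a9 was at 4.08 FPKM in the overexpressing tumour against 6.79 FPKM in the deficient tumour, and S100a8, its partner in calprotectin, at 3.57 against 5.58 FPKM. All 5 neutrophil genes that met the FPKM minimum were below 0, with a median of −0.34. With no minimum 7 were below 0 and 2 above, with a median of −0.19. Elane, Mpo, Camp and Ngp, genes of immature neutrophils, were listed at 0 in both. Under anti-PD-1, S100a9 had the other sign, at 4.47 against 2.82 FPKM.

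Most interferon and antigen presentation genes lay slightly below 0. Of 23 type I interferon response genes 22 were below 0, with a median of −0.20. Usp18, which restrains the interferon receptor, was at 27.7 FPKM in the overexpressing tumour against 35.9 FPKM in the deficient tumour, and Oas2, an antiviral enzyme, at 11.8 against 14.9 FPKM. Ifit2 was the exception, at 18.4 against 16.3 FPKM. All 16 genes of MHC class I presentation were below 0, with a median of −0.13, H2-T23 at 155 FPKM in the overexpressing tumour against 180 FPKM in the deficient tumour and Psmb9, an immunoproteasome subunit, at 118 against 136 FPKM. All 8 genes of MHC class II presentation were below 0 as well, H2-Eb1 at 179 against 202 FPKM. None of these MHC genes was 1.5-fold apart, and without replicates such differences cannot be set against a spread. Of 26 interferon-γ response genes 20 were below 0, with a median of −0.08 and a range of −0.39 to 0.42. The upper end was Gvin1, whose row overlaps that of Gm4070, and the 4 rows of both summed to a log2 ratio of −0.01. The next highest was Gbp9, at 0.05.

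**Figure D3:**
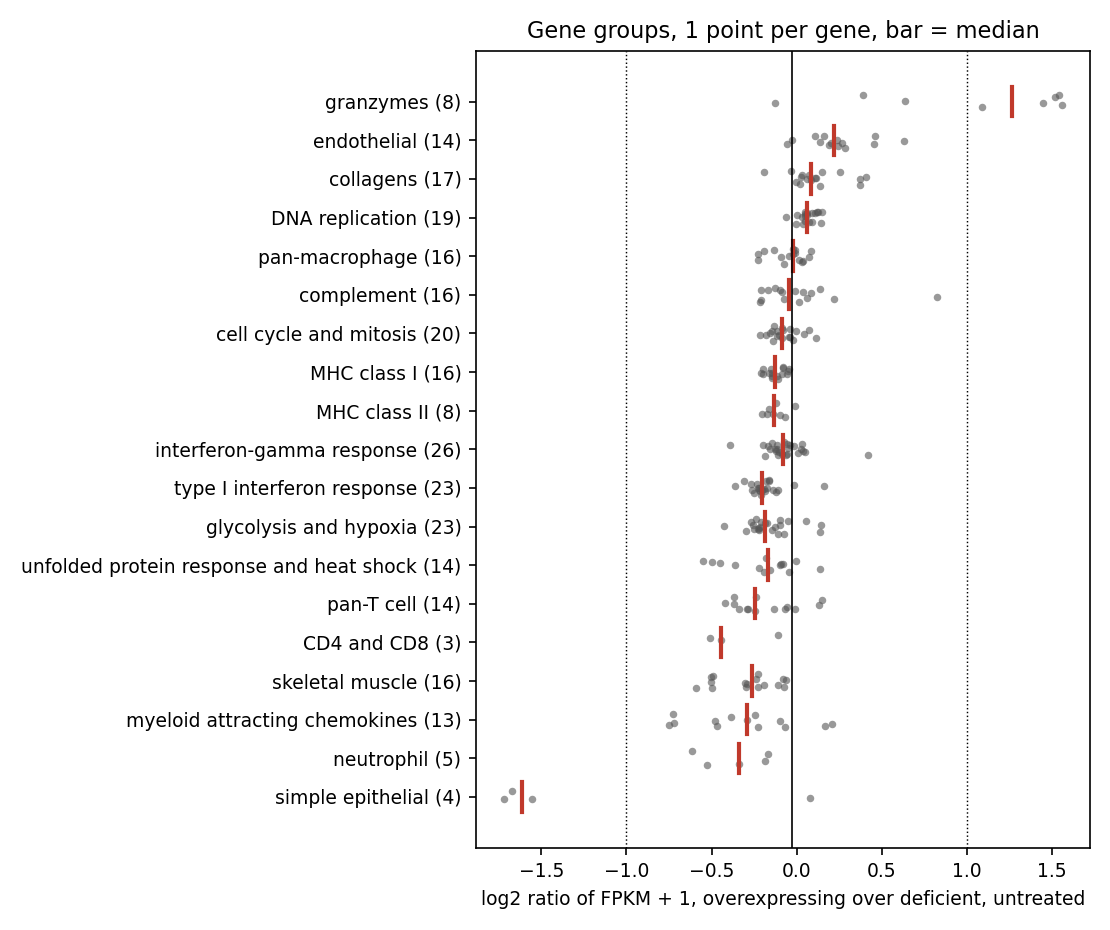
log2 ratios of FPKM + 1, overexpressing over deficient, in the untreated pair for genes of 19 groups, 1 point per gene, with the number of genes in brackets and the group median as a red bar. The solid line is the median of all 11467 genes (−0.03) and the dotted lines mark a log2 ratio of 1 in size; the granzyme median is the highest and the simple epithelial median the lowest shown, and the simple epithelial median of −1.61 rests on 3 genes that met the FPKM minimum in the deficient tumour alone and is −0.37 with no minimum.

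Genes of glycolysis and hypoxia were below 0 for 20 of 23 members, with a median of −0.18. Bnip3, a mitophagy receptor induced by hypoxia, was at 70.6 FPKM in the overexpressing tumour against 95.2 FPKM in the deficient tumour, and Car9, a carbonic anhydrase induced by hypoxia, at 15.3 against 19.0 FPKM. P4ha2, a collagen prolyl hydroxylase that hypoxia induces, was at 9.81 against 15.5 FPKM. In the anti-PD-1 pair the group lay on the other side, with 20 of 23 above 0 and a median of 0.39, and Car9 was at 25.7 FPKM in the overexpressing tumour against 4.89 FPKM in the deficient tumour. Of 14 heat shock and unfolded protein response genes 13 were below 0 in the untreated pair, with a median of −0.17. Hspa1a, an inducible HSP70, was at 3.12 FPKM in the overexpressing tumour against 5.03 FPKM in the deficient tumour. Of 18 immediate early genes 15 were below 0, and Fos was at 5.19 against 8.39 FPKM.

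Endothelial genes lay on the higher side, 12 of 14 above 0 with a median of 0.22. Cldn5, a tight junction protein of vessels, was at 4.05 FPKM in the overexpressing tumour against 2.26 FPKM in the deficient tumour, and Emcn, a sialomucin of capillaries and veins, at 7.79 against 5.40 FPKM. Cdh5, the cadherin of endothelial junctions, was at 15.4 against 12.5 FPKM. Eng and Flt1 did not share this side, Eng at 12.5 FPKM in the overexpressing tumour against 13.1 FPKM in the deficient tumour. In the anti-PD-1 pair 12 of 14 were again above 0, with a median of 0.41. Of 17 collagen genes 14 were above 0, the highest being the chains of collagen VI: Col6a3 was at 4.68 against 3.29 FPKM and Col6a2 at 9.22 against 6.90 FPKM. The collagens did not share this side in the anti-PD-1 pair, with 9 above and 8 below 0. There the log2 ratio was −0.02 for Col6a3 and −0.12 for Col6a2.

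Genes of cell division, ribosomes and cholesterol synthesis differed little, and bulk libraries do not say in which cells. Of 19 DNA replication genes 16 were above 0, with a median of 0.06, and Ccne2, a cyclin of the G1 to S transition, was at 5.36 FPKM in the overexpressing tumour against 4.73 FPKM in the deficient tumour. Of 20 genes of mitosis 17 were below 0, with a median of −0.08, and Ccnb1, a mitotic cyclin, was at 45.6 against 53.01 FPKM. Of 80 cytosolic ribosomal protein genes 71 were below 0, with a median of −0.09. Under anti-PD-1, 77 of those 80 were above 0. Of 18 genes of cholesterol synthesis 15 were below 0, Sqle at 34.1 FPKM in the overexpressing tumour against 41.0 FPKM in the deficient tumour.

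The simple epithelial keratins Krt8, Krt18 and Krt19 were detected in the deficient tumour and at or near 0 in the overexpressing tumour, while Krt20 was close to even. Krt8 and Krt18, partners in the filaments of simple epithelia, were listed at 0 in the overexpressing tumour against 1.94 and 2.29 FPKM in the deficient tumour, and Krt19 was at 0.173 against 2.74 FPKM. The deficient tumour's values rested on an estimated 90, 78 and 102 fragments. These 3 genes met the FPKM minimum through the deficient tumour alone, so the lower value followed in part from the rule. Krt20, a keratin of intestinal epithelium, met it in both, at 2.06 FPKM in the overexpressing tumour against 1.89 FPKM in the deficient tumour, a log2 ratio of 0.08. The median of the list was −1.61 over these 4 genes and −0.37 with no minimum. Krt8, Krt18 and Krt19 were low on both sides of the anti-PD-1 pair, Krt19 at 0.331 FPKM in the overexpressing tumour and 0.0357 FPKM in the deficient tumour. Of the 12 epithelial genes in the list 8 were below 0 in the untreated pair, and 6 were listed at 0 in the overexpressing tumour against 1 in the deficient tumour.

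Markers of epidermis lay on the same side as these keratins. Of 15 epidermis and hair follicle genes 14 were below 0, and 7 were listed at 0 in the overexpressing tumour against 0 in the deficient tumour. These counts took every listed gene, of which 2 met the FPKM minimum. The share of 60% below 0 covers only genes that met it, and is no measure for them. Krt5 was at 0.0206 FPKM in the overexpressing tumour against 0.744 FPKM in the deficient tumour, Krt10 at 0.649 against 1.44 FPKM, and Krt14 was listed at 0 against 0.293 FPKM. The summed level of the list was 93.7 FPKM in the overexpressing tumour and 99.02 FPKM in the deficient tumour, nearly all of it Lgals7, at 91.9 against 92.4 FPKM. Skeletal muscle genes also lay on that side, with all 18 below 0, of which 16 met the FPKM minimum. They summed to 176 FPKM in the overexpressing tumour against 217 FPKM in the deficient tumour, and Acta1, skeletal muscle actin, was at 39.0 against 55.3 FPKM. The part of epidermis or muscle in the keratin difference, or in Des, at 11.2 against 17.3 FPKM, was not tested. Adipocyte genes summed to 79.3 FPKM in the overexpressing tumour against 71.7 FPKM in the deficient tumour.

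Several of the larger ratios belonged to rows that lie within the row of a near-identical gene. Rps27 was at 53.6 FPKM in the overexpressing tumour against 10.4 FPKM in the deficient tumour, yet its row covers the same bases of chromosome 3 as Gm9846, and their sum was 1790 against 1973 FPKM. Amd1 was at 0.0153 against 4.68 FPKM, and the sum with Amd2, which covers nearly the same bases, was 27.5 FPKM in the overexpressing tumour and 27.1 FPKM in the deficient tumour. BC002163 was at 22.2 against 6.87 FPKM within the row of Ndufs5, with a sum of 74.2 against 80.1 FPKM. Apoo-ps within Apoo, Hist2h2aa2 within Hist2h2aa1 and Gm4070 within Gvin1 behaved likewise, with sums of 17.5 against 16.8, 8.77 against 7.98 and 22.3 against 22.6 FPKM. Thus 3 of the 14 higher and 3 of the 11 lower genes lay within another row, and the log2 ratios of these 6 sums ran from −0.14 to 0.12.

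**Figure D4:**
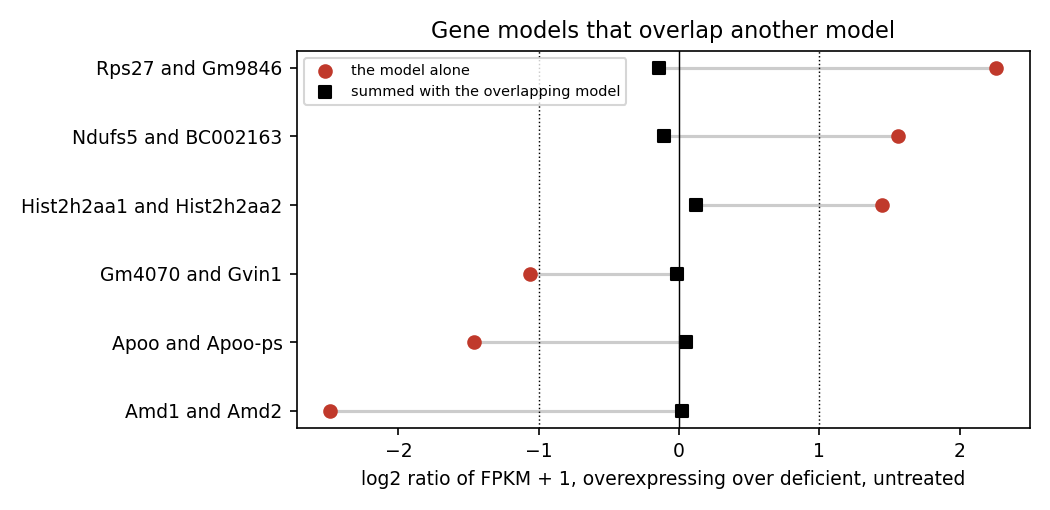
log2 ratio of FPKM + 1, overexpressing over deficient, untreated, for 6 gene models past a log2 ratio of 1 in size (red circles) and for each summed with the model it overlaps (black squares). The sums lie between −0.14 and 0.12, close to 0, while the models alone lie between −2.48 and 2.26.

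Low counts lay behind other genes past the size rule. Of the 14 higher genes at least 3, and of the 11 lower genes 5, rested on fewer than 50 estimated fragments in both libraries. For Hist1h4d, Hist2h4, Hist2h2ac and Hist2h2aa2 the transcript length used was longer than the bases their rows span. Their fragments were therefore estimated too high, and the count of 3 can be too low. Sprr4, a gene of cornified epithelium, was at 1.43 FPKM in the overexpressing tumour and listed at 0 in the deficient tumour, from an estimated 7 fragments. Hist2h2ac, a histone gene, was at 4.19 against 1.56 FPKM from an estimated 49 and 19 fragments. The histone gene Hist1h4d was at 2.85 against 0.885 FPKM. Its estimate of 73 and 24 fragments used a length of 1138 bases, more than its row spans (23581602 to 23581913), and is too high. Hist2h2ac and Hist1h4d lay on the other side in the anti-PD-1 pair.

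By position, no region stood far from the rest. Median log2 ratios of the 20 chromosomes ran from −0.05 to −0.01. In 823 windows of 30 neighbouring genes the medians ran from −0.13 to 0.10. The highest lay on chromosome 14 (55784995 to 59548903) and holds the granzyme cluster. The lowest lay on chromosome 6 (125192200 to 133107746), with 25 of 30 genes below 0, and holds the natural killer gene complex.

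The anti-PD-1 pair gave each gene a second value in libraries that the untreated comparison did not use. Of the 34 genes higher by 1.5-fold without treatment, 22 (64.7%) were above 0 in that pair, against 58.1% of all genes. Of the 40 lower genes, 21 (52.5%) were below 0, against 41.9% of all genes. With FPKM of 5 or more, 10 of 15 higher genes (66.7%) were above 0 against 61.5% of all, and 9 of 13 lower genes (69.2%) were below 0 against 38.5%. The shares of the higher genes were near those of all genes. Ratios of both pairs correlated across the 11467 genes at r = 0.19, or 0.13 at FPKM of 5 or more without Il34 and granzymes C to G. Both pairs share the cell lines, and genes are not independent replicates.

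The 20 genes with the largest same-sign ratios in both pairs were 9 higher and 11 lower. The higher genes were Il34, the 5 granzymes, Serpinb9b, BC002163 (within the row of Ndufs5) and Rmrp, the RNA of a ribonuclease, which had an estimated 48 and 26 fragments in the untreated overexpressing and deficient tumours. The lower genes were Saa3, Cxcl13, Ccl3, Xcl1, Pdcd1, Ltb, Mfap4, Gpr84, Gimap7, Des and Fam100b (within the row of Gm7367). Cxcl13 was at 1.43 FPKM in the anti-PD-1 overexpressing tumour against 23.8 FPKM in the anti-PD-1 deficient tumour, and Saa3 at 12.9 against 30.9 FPKM. Lcn2 did not recur, at 2.16 FPKM in the anti-PD-1 overexpressing tumour against 1.91 FPKM in the anti-PD-1 deficient tumour.

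**Figure D5:**
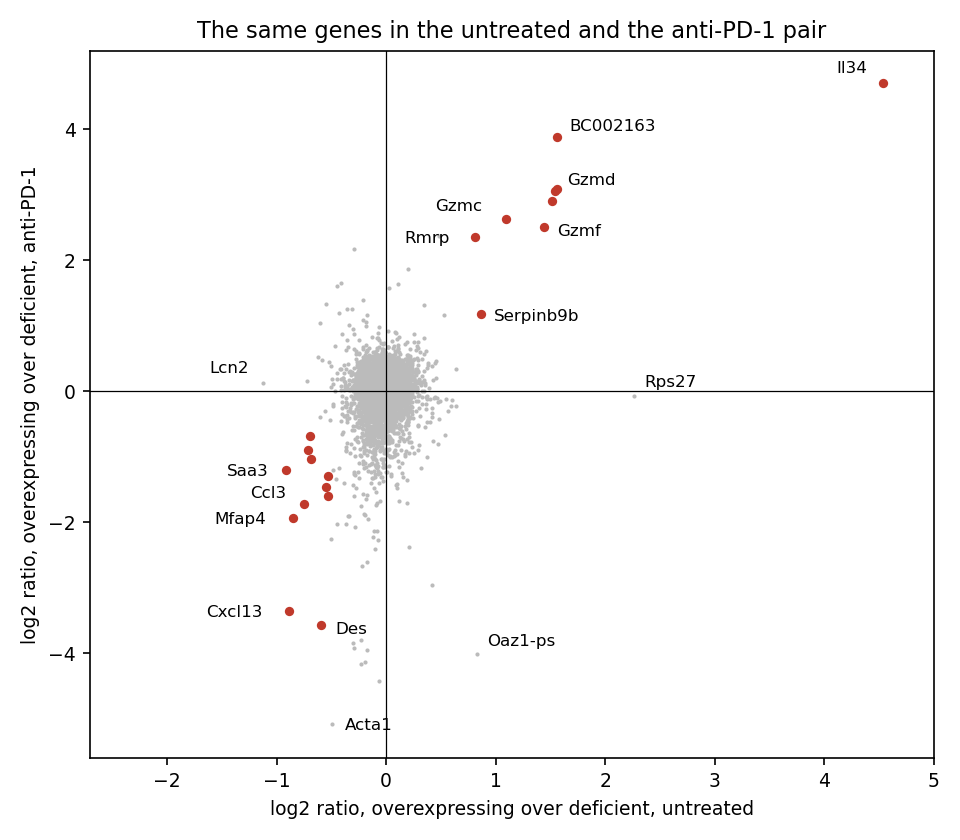
log2 ratios of FPKM + 1, overexpressing over deficient, in the anti-PD-1 pair (vertical) against the untreated pair (horizontal), for genes with FPKM of 5 or more in either untreated library, 1 point per gene. Red marks the 20 genes with the largest same-sign ratios; Il34 and granzymes C to G are high in both, while Rps27, Oaz1-ps and Lcn2 are not on the same side in both.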

How the data were processed

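RNA-seq libraries came from 4 groups of CT26 tumours, 1 library each. The authors deposited 1 table of FPKM per gene row, fragments scaled to mapped fragments and transcript length. The submitters' processing notes name Cufflinks 2.2.1, TopHat2 2.1.0, CASAVA 1.8.2 and the mm10 build. The sources used here do not give strand or multi-mapping settings. Cufflinks divides fragments that match several genes, so near-copies and overlapping models are uncertain.

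Of 23745 rows, 1 emptied line was not used and 816 rows of short RNAs were left out. The row with the highest mean was kept per symbol. Table starts, which count from 0, were given from base 1. Depth was estimated from the value of 1 fragment in the lowest rows, and is approximate because Cufflinks corrects transcript length. No counting interval was computed.

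Log2 ratios of FPKM + 1 were computed from the deposited FPKM for 11467 genes, without a test, since each group has 1 library. The computation of ratios was tested on simulated data. Size was set at a log2 ratio of 1, or 1.5-fold. The genes named were those of the IL-34 and CSF-1 axis and PD-1 with its ligands, the 12 highest and 12 lowest with FPKM of 5 or more, those past a log2 ratio of 1, and the 2 highest and 2 lowest of each list. Granzyme, CD4 and CD8, pan-T and pan-macrophage genes were also named, and the 20 genes with the largest same-sign ratios in both pairs. The 68 lists hold 1033 genes, of which 10 were renamed by RefSeq accession and 5 were not matched. Members and lists were chosen with earlier results of these data known. Alternatives changed the pseudocount, the scaling (FPKM rescaled to TPM, or the median ratio set to 0), the minimum and the rows used. Promoter sequences are RefSeq's on GRCm38.p6; transcript identity used GENCODE transcripts. Python 3.11.15, numpy 2.4.6, pandas 2.3.3, Biopython 1.88 and matplotlib 3.10.9 were used.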

Additional observations from a re-analysis of the deposited data

Results flagged for a closer look

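Gm4070, a row within the interferon-inducible GTPase Gvin1 on chromosome 7, had ratios of opposite sign in the pairs. Its log2 ratio, overexpressing over deficient, was −1.06 in the untreated pair and 1.70 in the anti-PD-1 pair, and the difference between the pairs was not tested. The 4 rows of Gm4070 and Gvin1 together were at 22.3 FPKM in the untreated overexpressing tumour against 22.6 FPKM in the untreated deficient tumour, and at 24.5 against 46.7 FPKM in the anti-PD-1 pair.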

How the results depend on the processing

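Counts past a log2 ratio of 1 depended on how low values were treated. The 14 higher and 11 lower genes became 24 and 26 when 0.1 FPKM was added before the log, 8 and 0 when 5 was added, 22 and 22 after rescaling to TPM, and 8 and 1 with a minimum of 5 FPKM. The 74 genes 1.5-fold apart became 194, 12, 159 and 28 under the same settings. The 8 higher genes with a pseudocount of 5 FPKM or a minimum of 5 FPKM were Il34, granzymes C to G, Rps27 and BC002163, and the lower gene at that minimum was Lcn2. Without rows that lie within another gene's row, an alternative chosen after seeing the data, the counts were 11 higher, 8 lower and 62. The alternatives for the 1.5-fold count were also chosen after seeing the data. Of 68 list medians 17 changed sign under some alternative, among them natural killer genes, from 0.10 to −0.26 with a minimum of 5 FPKM. The other 16 were under 0.1 in size before the change, and some were larger after it. Regulatory T cell genes went from 0.06 to −0.13 with a minimum of 5 FPKM. Inhibitory receptors of T cells went from −0.09 to 0.16 after rescaling to TPM. Of 57 single-gene ratios 1 changed sign. Precision is limited by 1 library per group and by few fragments below 5 FPKM. No paired analysis was possible because groups of 1 library share fewer than 2 replicate numbers; a fit of line and treatment over the 4 libraries was not made.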
